A study of Mus musculus with 6 samples.

Results

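The levels of 10 genes that govern the G1 phase of the cell cycle were examined in cultured mouse cells labelled female germline stem cells (FGSCs), with and without metformin. The genes were listed by name: the D cyclins Ccnd1, Ccnd2 and Ccnd3, the E cyclin Ccne1, the kinases Cdk4 and Cdk6, the KIP inhibitor Cdkn1b and the INK4 inhibitors Cdkn2a, Cdkn2b and Cdkn2c. All 10 were found by Ensembl identifier among the 55401 genes of the deposited table. RNA-seq was performed on 3 control libraries and 3 libraries from cells exposed to 1 μM metformin, an oral anti-diabetic biguanide, for 24 h. Both groups were labelled C57BL/6, at passages over 20, and both were grown on STO feeders, a mouse embryonic fibroblast line stopped from dividing, in serum medium with LIF, EGF, bFGF and GDNF. The libraries thus came from a long-passaged line, and the labels did not say whether the 3 libraries of a group came from separate cultures. P-values therefore measured the spread between these libraries, which may be technical.

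In the G1 phase, D cyclins are made in response to growth factors and bind CDK4 or CDK6, and the active kinases phosphorylate the retinoblastoma protein, which releases E2F factors from repression. E2F then drives cyclin E, which with CDK2 carries the cell into DNA synthesis. INK4 proteins bind CDK4 and CDK6 and keep D cyclins off them, whereas KIP proteins such as p27, the product of Cdkn1b, bind cyclin-CDK complexes and block cyclin E-CDK2. In cultured mouse cells the Cdkn2a-Cdkn2b locus is known for being switched on over passages and for being lost or silenced in lines that go on dividing. Cdkn2a encodes both p16INK4a and p19ARF from separate first exons joined to common later exons in different reading frames.

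The values were FPKM, fragments mapped to a gene scaled by its length and by the depth of the library, and depth was estimated at 13400000 to 14040000 fragments per library from the steps between low values of short genes. At that depth 1 fragment on 1 kb of transcript was worth 0.0712 to 0.0746 FPKM. Of 11 germ cell markers, Dazl, Dppa3, Pou5f1, Nanos3 and Tfap2c were listed at 0 FPKM in all 6 libraries, Ddx4 lay between 0 and 0.05 FPKM, and Ifitm3 between 0.32 and 1.32 FPKM. Kit, which is also a gene of blood progenitors, was the only germ cell marker with a mean of at least 1 FPKM, at 118 FPKM. In contrast, 14 of 15 blood cell markers had a mean of at least 10 FPKM, among them Coro1a at 139 FPKM, Lcp1 at 96.0 FPKM and Cd53 at 94.9 FPKM, with Ptprc, which encodes the leukocyte antigen CD45, at 13.4 FPKM and Spi1 at 23.2 FPKM. The summed level of the germ cell list was 117 to 120 FPKM in control and 118 to 120 FPKM in metformin libraries, and that of the blood cell list was 779 to 785 FPKM in control libraries and 786 to 799 FPKM in metformin libraries. Markers of feeder fibroblasts summed to 0.49 to 0.92 FPKM in control libraries and 0.52 to 0.83 FPKM in metformin libraries, with Lum at 0 and Dcn highest at a mean of 0.27 FPKM. Of 10 ovarian somatic markers, 7 including Foxl2, Fshr and Wt1 were at 0 in all libraries and Star was highest at 1.89 FPKM, and the list summed to 2.18 to 2.77 FPKM in control and 2.49 to 2.68 FPKM in metformin libraries. The markers measured by RNA-seq thus went against the germ cell label, and the cells are called the cultures labelled FGSCs here. For its FGSC line, the paper reported RT-PCR products of Pou5f1, Ddx4, Dppa3, Ifitm3, Dazl and Prdm1. It also reported immunofluorescence of MVH, the protein of Ddx4. Those assays were not examined here.

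Promoter sequences are shown for the members at both ends of the range of levels, since Cdk4 was the highest member, Cdk6 its low partner, and Cdkn2a and Cdkn2b lay next to 0. RefSeq windows of GRCm38.p6 that reach 250 bases upstream of a transcript start were matched for 8 of the 10 members, with 11 windows in all. Each window was searched on both strands for E2F motifs spelled TTTCGCGC, TTTGGCGC, TTTCCCGC or TTTGCCGC, for the E-box CACGTG that MYC and USF factors can bind, for the CRE TGACGTCA, for the GC box GGGCGG and for the TATA box TATAAA. Capitals mark matches to the E2F, E-box and CRE motifs, and all windows read 5′ to 3′ in the direction of the gene.
Cdk4, chr10:127063285-127063534, plus strand: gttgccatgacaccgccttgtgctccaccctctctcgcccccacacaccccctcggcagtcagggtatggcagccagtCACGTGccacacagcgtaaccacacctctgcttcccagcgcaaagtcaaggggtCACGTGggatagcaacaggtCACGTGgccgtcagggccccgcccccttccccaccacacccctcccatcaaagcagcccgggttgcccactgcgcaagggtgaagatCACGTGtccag
Cdk6, chr5:3343643-3343892, plus strand: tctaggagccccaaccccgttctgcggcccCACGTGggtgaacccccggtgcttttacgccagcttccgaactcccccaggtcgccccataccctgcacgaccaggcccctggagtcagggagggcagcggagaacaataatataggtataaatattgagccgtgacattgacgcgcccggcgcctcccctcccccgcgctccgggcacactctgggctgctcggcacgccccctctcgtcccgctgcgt
Cdkn2a, upstream start of p19ARF, chr4:89294620-89294869, minus strand: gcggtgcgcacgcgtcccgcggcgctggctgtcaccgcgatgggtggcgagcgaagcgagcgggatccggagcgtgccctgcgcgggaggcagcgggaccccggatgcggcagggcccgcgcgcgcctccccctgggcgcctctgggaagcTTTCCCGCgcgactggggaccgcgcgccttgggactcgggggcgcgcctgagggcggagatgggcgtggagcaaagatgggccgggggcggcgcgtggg
Cdkn2a, inner start of p16INK4a, chr4:89282193-89282442, minus strand: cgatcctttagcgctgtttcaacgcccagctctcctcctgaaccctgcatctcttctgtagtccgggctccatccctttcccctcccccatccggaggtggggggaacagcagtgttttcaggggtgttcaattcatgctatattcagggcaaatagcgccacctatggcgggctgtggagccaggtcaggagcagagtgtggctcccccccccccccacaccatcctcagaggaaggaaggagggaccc
Cdkn2b, chr4:89311033-89311282, minus strand: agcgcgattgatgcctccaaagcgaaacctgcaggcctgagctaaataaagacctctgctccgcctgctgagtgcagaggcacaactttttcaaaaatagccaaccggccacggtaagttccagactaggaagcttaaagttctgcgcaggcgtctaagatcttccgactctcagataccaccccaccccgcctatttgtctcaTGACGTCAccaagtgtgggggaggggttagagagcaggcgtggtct
The Cdk4 window held 4 E-boxes, at 172, 118, 98 and 11 bases before the start, and the Cdk6 window held 1, at 220 bases. The Cdk6 window precedes a RefSeq start that lies inside the gene as listed, which begins at 3341485. An E-box was found in 6.02% of the 32807 windows of all genes, and 4 or more in 7 of them, or 0.0213%. That cut of 4 was taken from the Cdk4 window, which is among the 7, and was made for no other motif. The p19ARF window held 1 E2F motif, at 99 bases before the start, and the other 10 windows of members held none, with a share of 1.86% over all genes. The Cdkn2b window held the CRE, at 46 bases before the start, against 1.55% of all windows, whereas the p16INK4a window held none of the motifs searched. A GC box was present in 7 of the 11 members' windows, against 32.7% of all windows. Ccnd3, Cdkn2a and Cdkn2c gave 2 windows each. The Cdk6 window alone held a TATA box, against 12.4% of all. The members' windows ran from 42.8% to 78.4% GC, and the shares over all windows were not matched for base content. Both Cdkn2a windows differed in base composition, with 78.4% GC at the p19ARF start and 60% GC at the p16INK4a start. The median over all windows was 52.4% GC, with 10th and 90th percentiles of 38.8% and 69.2%. These matches describe letters in the windows and do not show that a factor was bound.

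Of the 10 members, 8 averaged 1 FPKM or more across all 6 libraries and entered the test over 10661 genes. In order of level per length, Cdk4 was highest at a mean of 122 FPKM, followed by Ccnd2 at 47.2, Ccne1 at 29.8, Ccnd1 at 29.5, Ccnd3 at 20.4, Cdkn2c at 11.96, Cdkn1b at 11.55 and Cdk6 at 3.96 FPKM. The ranges of neighbours in that order overlapped only for Ccne1 with Ccnd1 and for Cdkn2c with Cdkn1b among these 8 genes. Each of the other steps was seen in all 6 libraries, from a ratio of 1.45 between Ccnd1 and Ccnd3 to a ratio of 2.92 between Cdkn1b and Cdk6. Cdkn2a and Cdkn2b did not pass the filter and overlapped each other next to 0.

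**Figure D1:**
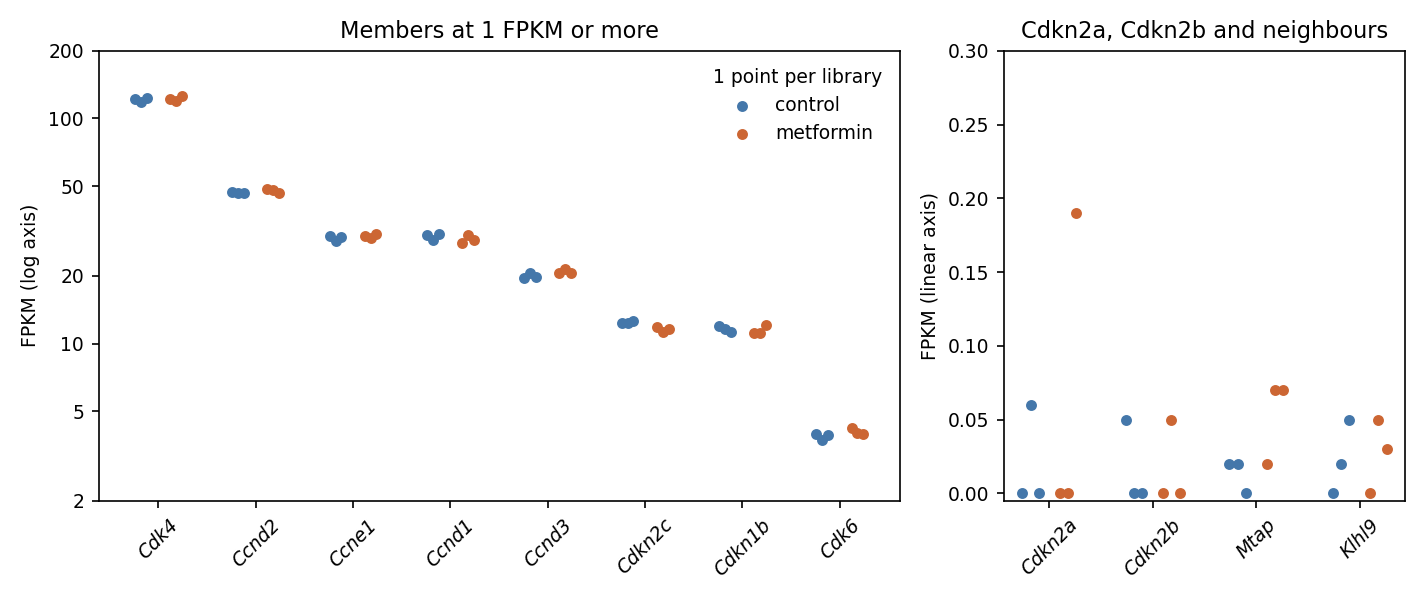
FPKM of each library for the 8 members at 1 FPKM or more (left, log axis) and for Cdkn2a, Cdkn2b, Mtap and Klhl9 (right, linear axis), with control libraries in blue and metformin libraries in orange. Cdk4 sits at 118 to 126 FPKM and Cdk6 at 3.71 to 4.21 FPKM, and the genes on the right stay at or below 0.19 FPKM.

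No member differed between metformin and control libraries by limma with Benjamini-Hochberg adjustment over all tested genes, with an adjusted p of 0.402 or more. Over all tested genes, 3 of 10661 were higher with metformin at an adjusted p under 0.05, or 0.0281%, and 0 were lower, or 0%. At an unadjusted p under 0.05, 1 of the 8 tested members was lower, against 4.81% of all tested genes, and 0 were higher, against 6.03%. The groups did not overlap for 1 member that was higher, against 8.89% of tested genes, and for 1 that was lower, against 8.1%. The median log2 fold change of the 8 members was 0.02, and that of all tested genes was 0.0041. In bulk RNA, fewer cells of a type and less RNA per cell cannot be told apart, for these and the following values.

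The 3 D cyclins were all present. Ccnd2 (chromosome 6, 127125162 to 127152193, GRCm38, minus strand), the D cyclin best known from blood cells, gonads and the cerebellum, was listed at 46.9, 46.7 and 46.7 FPKM in control libraries and at 48.4, 48.1 and 46.6 FPKM in metformin libraries. The groups overlapped, because metformin library 3 lay below every control library. The log2 fold change was 0.03 (SE 0.02, 95% interval −0.03 to 0.08, adjusted p = 0.723). Ccnd1 (chromosome 7, 144929931 to 144939925, minus strand), the D cyclin most tied to mitogen and adhesion signals, was at 30.4, 28.9 and 30.7 FPKM in controls and at 28.1, 30.2 and 28.8 FPKM with metformin. One library of each group lay within the range of the other, and the log2 fold change was −0.05 (SE 0.04, 95% interval −0.14 to 0.04, adjusted p = 0.694). Ccnd3 (chromosome 17, 47505051 to 47599691, plus strand), the D cyclin that developing lymphocytes require, was at 19.50, 20.48 and 19.85 FPKM in controls and at 20.50, 21.55 and 20.53 FPKM with metformin. All 3 metformin libraries thus lay above all controls, although the nearest libraries of the groups stood at 20.48 and 20.50 FPKM. The difference of 4.60% corresponded to a log2 fold change of 0.06 (SE 0.03, 95% interval −0.02 to 0.14), which did not pass at an adjusted p of 0.545, and the exact permutation test gave p = 0.1, the smallest that 3 against 3 libraries allow.

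As shares of the summed D cyclin FPKM, Ccnd2 took 48.4% ± 0.296 in controls and 48.9% ± 0.922 with metformin (SD, n = 3, exact two-sided permutation p = 0.5, adjusted 0.625). Ccnd1 took 31.0% ± 0.806 and 29.7% ± 0.705 (SD, n = 3, exact two-sided permutation p = 0.2, adjusted 0.5). Ccnd3 took 20.6% ± 0.619 and 21.4% ± 0.221 (SD, n = 3, exact two-sided permutation p = 0.2, adjusted 0.5). The order Ccnd2, Ccnd1, Ccnd3 was the same in all 6 libraries. The summed level was 96.7 ± 0.605 FPKM in controls and 97.6 ± 2.06 FPKM with metformin (SD, n = 3, exact two-sided permutation p = 0.8, adjusted 0.8). With the ratio of Cdk6 to Cdk4, these were 5 comparisons, adjusted together by Benjamini-Hochberg, and the exact permutation test could not go below p = 0.1 for any of them.

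Cdk4 (chromosome 10, 127063534 to 127067920, plus strand), the catalytic partner of the D cyclins, was listed at 122, 118 and 123 FPKM in controls and at 122, 120 and 126 FPKM with metformin. The groups lay on top of each other, with means of 121 ± 2.80 and 123 ± 3.04 FPKM (SD, n = 3), a log2 fold change of 0.02 (SE 0.03, 95% interval −0.05 to 0.08) and an adjusted p of 0.862. Cdk6 (chromosome 5, 3341485 to 3531008, plus strand), the other D cyclin kinase and one with a known role in blood progenitors, was at 3.96, 3.71 and 3.93 FPKM in controls and at 4.21, 4.01 and 3.95 FPKM with metformin. Metformin library 3 lay below control library 1, so the groups overlapped, and the log2 fold change was 0.06 (SE 0.05, 95% interval −0.06 to 0.17, adjusted p = 0.726). Per length, Cdk4 was listed at 29.0 to 31.9 times the level of Cdk6 in every library. Cdk6 came to 3.19% ± 0.047 of Cdk4 in controls and 3.31% ± 0.159 with metformin (SD, n = 3, exact two-sided permutation p = 0.4, adjusted 0.625).

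**Figure D2:**
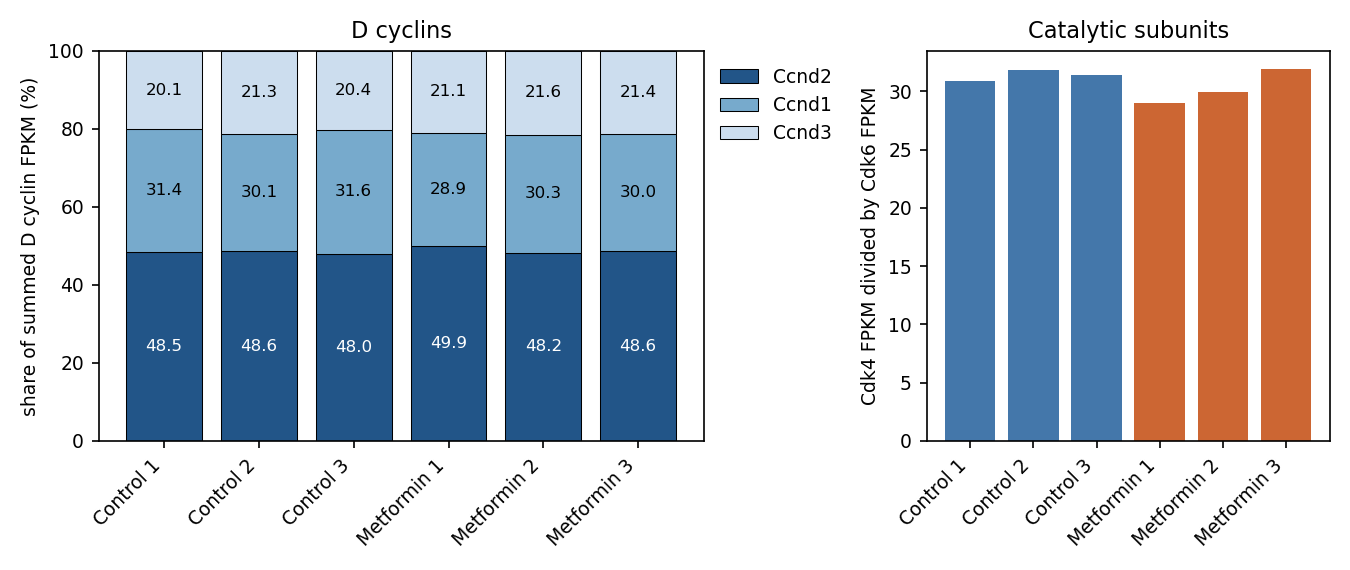
Left, share of Ccnd2, Ccnd1 and Ccnd3 in the summed D cyclin FPKM of each library in percent. Right, Cdk4 FPKM divided by Cdk6 FPKM in each library, with control libraries in blue and metformin libraries in orange. Ccnd2 takes 48.0% to 49.9% of the D cyclin FPKM, and the kinase ratio stays between 29.0 and 31.9.

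Ccne1 (chromosome 7, 38097984 to 38107534, minus strand), which activates CDK2 at the end of G1, was listed at 30.0, 28.6 and 29.7 FPKM in controls and at 30.0, 29.6 and 30.7 FPKM with metformin. The ranges overlapped, with a log2 fold change of 0.03 (SE 0.03, 95% interval −0.04 to 0.10, adjusted p = 0.743). Its paralog Ccne2 had 30.4 ± 0.935 FPKM in controls and 28.6 ± 0.509 FPKM with metformin (SD, n = 3). All 3 metformin libraries lay below all controls, as for 8.1% of all tested genes. The log2 fold change of Ccne2 was −0.09 (SE 0.03, adjusted p = 0.400). The ratio of Ccne1 to Ccne2 was 0.969 ± 0.053 in controls and 1.05 ± 0.008 with metformin (SD, n = 3). Both E cyclins thus stood at a like level per length. The ratio was 0.911 to 1.02 in control libraries and 1.04 to 1.06 in metformin libraries, so the groups did not overlap. The exact two-sided permutation test gave an unadjusted p = 0.1, the smallest that 3 against 3 libraries allow. This ratio was not a planned comparison, and Ccne2 alone already separated the groups.

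Among the INK4 genes, Cdkn2c (chromosome 4, 109660876 to 109667189, minus strand), which encodes p18INK4c, was listed at 12.28, 12.28 and 12.57 FPKM in controls and at 11.80, 11.24 and 11.60 FPKM with metformin. All metformin libraries lay below all controls, by 6.71% between the means of 12.4 ± 0.167 and 11.5 ± 0.284 FPKM (SD, n = 3). The log2 fold change of −0.09 (SE 0.03, 95% interval −0.17 to −0.01) had an unadjusted limma p of 0.0265 and did not pass at an adjusted p of 0.402, and the exact permutation p was 0.1. Cdkn2d, which encodes p19INK4d and was matched by position, had 13.4 ± 0.953 FPKM in controls and 13.0 ± 1.38 FPKM with metformin (SD, n = 3), with a log2 fold change of −0.05 (SE 0.08, adjusted p = 0.878). Cdkn2c and Cdkn2d together made up 99.2% to 100% of the summed INK4 FPKM in each library.

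Cdkn1b (chromosome 6, 134920401 to 134925513, plus strand) was listed at 12.01, 11.61 and 11.31 FPKM in controls and at 11.14, 11.19 and 12.05 FPKM with metformin. Metformin library 3 was the highest of all 6 libraries and metformin library 1 the lowest, and the log2 fold change was −0.02 (SE 0.04, 95% interval −0.12 to 0.08, adjusted p = 0.890). Of the other KIP genes, Cdkn1a, which encodes the p53 target p21, had 28.9 ± 1.14 FPKM in controls and 29.7 ± 1.39 FPKM with metformin (SD, n = 3, adjusted p = 0.810 by limma). Cdkn1c, which encodes p57, was at 0.04 FPKM in control library 1, at 0.03 FPKM in metformin library 1 and at 0 in the other 4 libraries. Per length, Cdkn1a thus stood above Cdkn1b in all 6 libraries, and Cdkn1c next to 0.

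**Figure D3:**
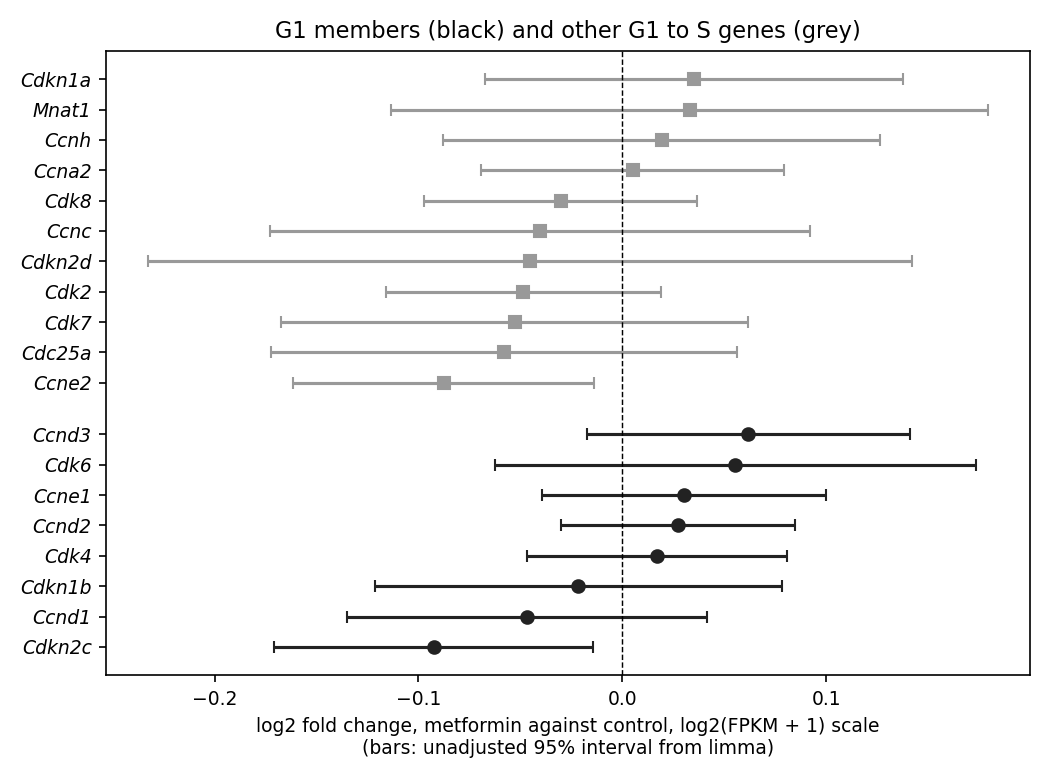
Log2 fold change of metformin against control on the log2(FPKM + 1) scale for the 8 tested members (black) and for the 11 tested other genes of the G1 to S step (grey), with unadjusted 95% intervals from limma. The members lie between −0.09 for Cdkn2c and 0.06 for Ccnd3.

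Cdkn2a (chromosome 4, 89274471 to 89294653, minus strand) was listed at 0, 0.06 and 0 FPKM in control libraries and at 0, 0 and 0.19 FPKM in metformin libraries. With an exon length of 1170 bp in GENCODE M1, these values came to about 1 fragment in control library 2 and 3 fragments in metformin library 3. Cdkn2b (chromosome 4, 89306299 to 89311039, minus strand), which encodes p15INK4b, was at 0.05, 0 and 0 FPKM in controls and at 0, 0.05 and 0 FPKM with metformin, about 1 fragment in each library above 0 with an exon length of 1393 bp. Both genes were thus at 0 in 4 of 6 libraries, and no library held more than about 3 fragments, which were worth 0.183 to 0.191 FPKM for Cdkn2a and 0.153 to 0.161 FPKM for Cdkn2b. A listing of 0 allows a level up to those limits, which cover counting error only, and no fold change between groups was drawn from these values. The table gave 1 value per gene, so that p16INK4a and p19ARF could not be read apart, although the few fragments limit both products together. For the same reason isoform use was not read for any member.

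Genes around Cdkn2a were examined for their own levels. Of 69 listed genes within 1 Mb, Cdkn2a included, 60 were at 0 in all 6 libraries and 9 were above 0 in at least 1. For comparison, 22809 of all 55401 listed genes were above 0 in at least 1 library. Of the 69, 39 had a symbol, among them 7 interferon genes that were all at 0. Mtap (chromosome 4, 89137122 to 89181081), the neighbour that encodes the methylthioadenosine phosphorylase of methionine salvage and is used by most tissues, was at 0.02, 0.02 and 0 FPKM in controls and at 0.02, 0.07 and 0.07 FPKM with metformin. Those values came to about 8.9 fragments over the 6 libraries together. Klhl9, an adaptor for a CUL3 ubiquitin ligase, was likewise at 0 to 0.05 FPKM, or about 8.7 fragments over all 6 libraries. Dmrta1, on the far side of Cdkn2b, was at 0 in every library, as were Gm12606, Gm12608, Gm12609, Gm12610, SNORA17, ENSMUSG00000107513 and ENSMUSG00000098669, which lie between Mtap and Dmrta1. Gm12603 was at 0.20 FPKM and ENSMUSG00000117123 at 0.07 FPKM, both in control library 1 alone. Hacd4, listed as Ptplad2, was at 0.02 to 0.08 FPKM.

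The nearest gene at a mean of at least 1 FPKM with a sequence of its own was Focad, listed as BC057079, with 4.08, 4.34 and 4.15 FPKM in controls and 3.86, 4.28 and 4.08 FPKM with metformin. Mrpl48-ps lay closer at 21.5 to 27.5 FPKM, but it is a pseudogene that shares sequence with Mrpl48, so the source of its fragments is uncertain. Without Mrpl48-ps, 80 listed genes lay in a stretch of 3.39 Mb between Focad and the next gene at 1 FPKM or more on the other side, ENSMUSG00000100863. The ends of the stretch were set at genes of 1 FPKM or more, so means under 1 FPKM between them followed from that choice. Other stretches of the genome were not compared. The highest mean among the 80 genes was the 0.0417 FPKM of Cdkn2a, and the highest value in a single library was 0.20 FPKM. Hacd4, which overlaps Focad and reaches into this stretch, was not among the 80 and had a mean of 0.0483 FPKM. Low levels thus extended from Cdkn2a and Cdkn2b to Mtap and Klhl9 on one side and to Dmrta1 on the other. Whether the DNA of this stretch was present in the cells was not tested, since only RNA was measured.

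**Figure D4:**
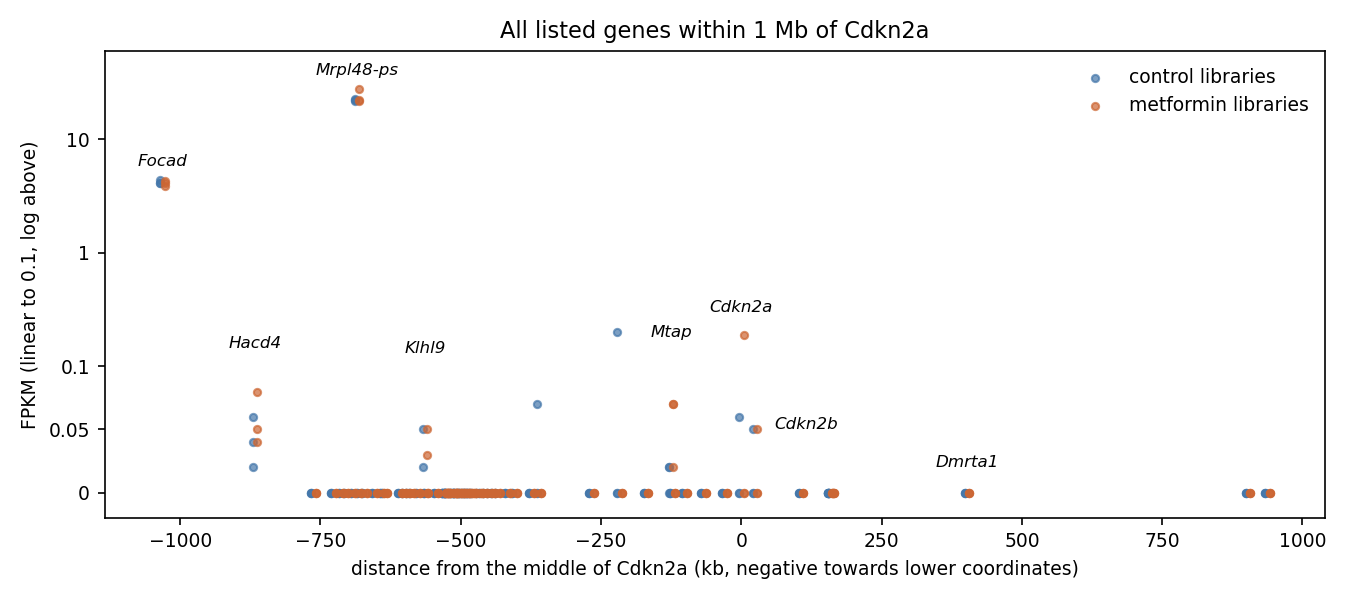
FPKM of all 69 listed genes within 1 Mb of Cdkn2a against the distance from the middle of Cdkn2a in kb, with 1 point per library, control in blue and metformin in orange, on an axis that is linear up to 0.1 FPKM and logarithmic above. Only Focad and Mrpl48-ps lie above 1 FPKM, and all the others stay at or below 0.20 FPKM.

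The other genes of the pathway are given by lists of their roles. Over all tested genes, 4.81% were lower and 6.03% higher at an unadjusted p under 0.05. The groups did not overlap for 8.1% that were lower and 8.89% that were higher. Among the genes named below, this also held for Ubac1, Cbx8 and Pim2, which were higher, and for Ccng1, Npm1, Mki67, Top2a and Ccnb1, which were lower. Of 13 other cyclins, CDKs and inhibitors of the G1 to S step, 11 were tested and 0 passed the limma test in either direction, with 1 lower and 0 higher at an unadjusted p under 0.05 and a median log2 fold change of −0.04. Cdk2, the kinase partner of cyclin E, had 20.1 ± 0.125 FPKM in controls and 19.4 ± 0.423 FPKM with metformin (SD, n = 3, adjusted p = 0.576 by limma), with no overlap between the groups. Cdc25a, the phosphatase that activates CDK2, had 14.2 FPKM in controls and 13.6 FPKM with metformin, with an adjusted limma p of 0.699. Cdk3, a pseudogene in common mouse strains, was not tested at a mean of 0.178 FPKM.

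All 13 genes of the pocket proteins, E2F and DP factors were tested, and 0 passed in either direction by limma, with 1 higher and 1 lower at an unadjusted p under 0.05 and a median log2 fold change of 0.01. Rb1, the retinoblastoma gene, had 5.55 ± 0.505 FPKM in controls and 5.65 ± 0.323 FPKM with metformin (SD, n = 3, adjusted p = 0.928 by limma). E2f6, a repressor of the family, had 10.1 and 8.93 FPKM with a log2 fold change of −0.16 (SE 0.05, adjusted p = 0.359), and its groups did not overlap. The activators E2f2 and E2f1 had log2 fold changes of 0.13 (SE 0.06, adjusted p = 0.456) and 0.16 (SE 0.09, adjusted p = 0.563). Of 15 ubiquitin ligase parts that act on these cyclins and inhibitors, 15 were tested and 0 passed by limma, with 1 higher and 0 lower at an unadjusted p under 0.05 and a median log2 fold change of 0.01. Ubac1 of the p27 ubiquitin ligase KPC had the smallest adjusted p of that list at 0.320, with a log2 fold change of 0.14 (SE 0.03), and Cul1 and Skp1a of the SCF core had −0.05 (SE 0.03) and −0.06 (SE 0.03).

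Of 16 regulators of the Cdkn2a locus, 13 were tested and 0 passed by limma in either direction, with 2 higher and 0 lower at an unadjusted p under 0.05 and a median log2 fold change of −0.02. The Polycomb genes Cbx8 and Ring1 had log2 fold changes of 0.22 (SE 0.04, adjusted p = 0.301) and 0.19 (SE 0.07, adjusted p = 0.421), and Bmi1, the Polycomb gene best known for repressing Cdkn2a, had −0.08 (SE 0.03, adjusted p = 0.472). Bmi1 itself was listed at 27.2 ± 0.999 FPKM in controls and 25.7 ± 0.535 FPKM with metformin (SD, n = 3). Of the 7 genes of the ARF, MDM2 and p53 axis, all were tested and 0 passed by limma, with 2 lower and 0 higher at an unadjusted p under 0.05 and a median log2 fold change of −0.04. Ccng1, a p53 target, had a log2 fold change of −0.12 (SE 0.03, adjusted p = 0.346), Npm1, which binds ARF in the nucleolus, had −0.07 (SE 0.02, adjusted p = 0.406), and Mdm2, the ligase of p53, had −0.06 (SE 0.05, adjusted p = 0.690). Genes below ARF in this axis were present, with Trp53 at 48.2 FPKM and Mdm2 at 14.6 FPKM over the 6 libraries, beside Cdkn2a next to 0.

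Of the 12 upstream inducers and regulators of D cyclins and p27, all were tested and 0 passed by limma in either direction, with 2 higher and 0 lower at an unadjusted p under 0.05 and a median log2 fold change of 0.00. Myc, a transcription factor that acts through E-boxes, had the smallest adjusted p of that list at 0.283, with 173 ± 2.71 FPKM in controls, 188 ± 2.06 FPKM with metformin (SD, n = 3) and no overlap between the groups. Its log2 fold change was 0.12 (SE 0.02). The kinases Pim2 and Gsk3b had log2 fold changes of 0.11 (SE 0.04, adjusted p = 0.450) and −0.07 (SE 0.05, adjusted p = 0.628). Of 12 proliferation markers, all were tested and 0 passed, with a median log2 fold change of −0.02. The log2 fold change was negative for 8 and positive for 4, from −0.10 to 0.05. At an unadjusted p under 0.05, 4 were lower, against 4.81% of all tested genes, and 0 were higher, against 6.03%. Mki67, the Ki-67 antigen, had a log2 fold change of −0.10 (SE 0.03, adjusted p = 0.346), Top2a, the topoisomerase of dividing cells, had −0.07 (SE 0.02, adjusted p = 0.363), and Ccnb1, the mitotic cyclin, had −0.07 (SE 0.03, adjusted p = 0.439). All 12 markers had a mean of at least 10 FPKM.

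**Figure D5:**
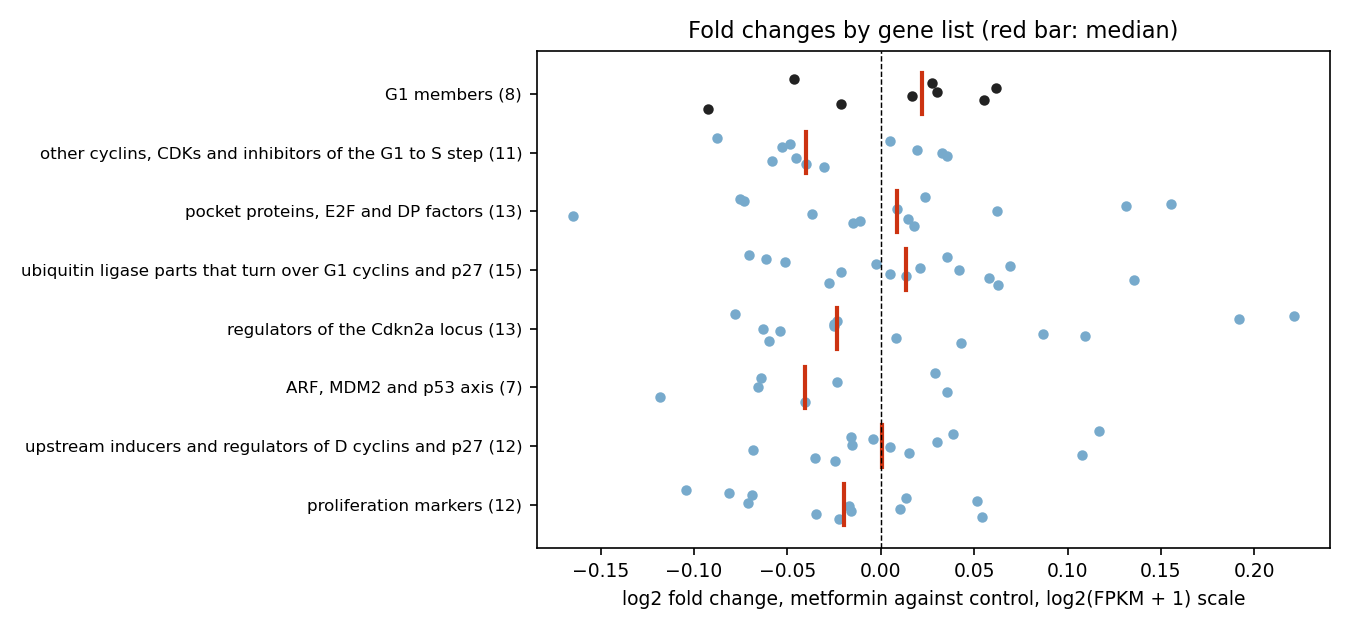
Log2 fold change of metformin against control on the log2(FPKM + 1) scale for each tested gene of the G1 members (black) and the pathway lists (blue), with the number of tested genes in brackets and red bars at the medians. Medians lie between −0.04 and 0.02, and no gene shown passed the test.

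Several members share bases with a gene on the opposite strand, and the strand setting of the counting was not given in the sources used here. Cdk4 overlaps Tspan31 by 641 bp at a mean of 25.9 FPKM, Ccnd3 overlaps Bysl by 361 bp at 25.7 FPKM, and Ccnd1 overlaps Oraov1 by 1771 bp at 2.43 FPKM. Fragments from these stretches could have been counted for either gene. The unnamed opposite genes over Ccnd2 and Cdk6 had means of at most 0.292 FPKM.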

How the data were processed

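RNA-seq libraries of 3 control and 3 metformin samples were grouped by the labels. Gene-level FPKM was deposited for 55401 Ensembl identifiers by the authors. These values include their alignment, counting and scaling by length and depth. HISAT2, DESeq2 and mm9 appear in the submitters' processing notes, without roles. However, 74.1% of the listed gene positions lay within 1 kb of GRCm38.p6 RefSeq genes and 4.80% within 1 kb of NCBIM37. The listed positions were thus taken as GRCm38. The counter and annotation are not given in the sources used here. The labels name the KAPA Stranded mRNA-Seq kit and the study's methods name a VAHTS kit. Symbols were matched for 32589 genes, and 137 of 137 list genes were matched, 2 of them by position.

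Values were tested as log2(FPKM + 1) for the 10661 genes averaging 1 FPKM or more, with limma 3.58.1 in R 4.3.3 (lmFit and eBayes with a trend), two-sided, with Benjamini-Hochberg adjustment over all tested genes and a threshold of 0.05. Fold changes on this scale understate changes of low genes. The D cyclin shares, their summed level and the Cdk6 to Cdk4 ratio were compared by exact permutation of libraries and adjusted over these 5 comparisons. Other exact permutation p-values were not adjusted. The limma fit was checked on simulated data with independent noise, and the permutation tests were not. Depth was estimated from single-exon genes under 400 bp, where 373 to 416 values per library all fell within 0.1 of a whole fragment. Floors are 3 fragments, with exon lengths from GENCODE M1.

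The members and lists were chosen with earlier results of these data known. Genes named were all members, genes near Cdkn2a that had fragments or lay between Mtap and Dmrta1, from each pathway list up to 3 with the smallest unadjusted p beside Cdkn1a, Cdkn1c, Cdkn2d, Cdk2, Ccne2 and Rb1, and from each marker list those at 0 and up to 4 with the highest level. Others (Cdk3, Trp53, and Ddx4, Ptprc and Spi1 as defining markers) were chosen with their values in view. Alternatives were a pseudocount of 0.1, no filter, a mean of at least 10 FPKM, TPM, quantile normalization, median centring, no trend, a replicate block and each library left out. Figures were drawn with matplotlib 3.10.9.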

Additional observations from a re-analysis of the deposited data

How the results depend on the processing

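No member was called under any of the alternatives, with a lowest adjusted p of 0.322, for Cdkn2c on genes averaging 10 FPKM or more, where Cdk6 was not tested. The log2 fold changes of the tested members kept their direction in 109 of 111 comparisons. Cdk4 turned in the other 2, with −0.0021 without control replicate 2 and −0.0022 without metformin replicate 3, in a leave-one-out range of −0.0022 to 0.0328. Cdkn2c, at −0.0926 with all libraries, ran from −0.107 without metformin replicate 1 to −0.0749 without metformin replicate 2. Sizes of the other small differences, none of them called, rested on single libraries. That of Cdkn1b ran from −0.0553 without metformin replicate 3 to −0.0007 without control replicate 1, Ccne1 from 0.0103 without control replicate 2 to 0.0436 without control replicate 1, Ccnd1 from −0.0752 without metformin replicate 2 to −0.0235 without metformin replicate 1, and Cdk6 from 0.0319 without control replicate 2 to 0.0705 without metformin replicate 3. Ccnd2 ran from 0.0166 without metformin replicate 1 to 0.0440 without metformin replicate 3, and Ccnd3 from 0.0391 without metformin replicate 2 to 0.0801 without control replicate 2. The difference in the Ccnd2 share ran from 0.0037 to 0.884 percentage points, without metformin replicates 1 and 2, and that of Cdk6 to Cdk4 from 0.0508 to 0.207, without metformin replicates 1 and 3. Genes lower with metformin numbered 0, but 3 without the filter on low values (22809 genes, with 4 higher), and 0 to 1 when single libraries were left out, with 1 each without control replicate 3 and without metformin replicate 3. Same-numbered libraries deviated from their group means with correlations of −0.0317, 0.0181 and 0.0479, so the numbers were not taken to pair the libraries. The fit with the replicate block called 2 genes higher, 0 lower and 0 members. On unfiltered genes, Cdkn2a had an adjusted p of 0.843 by limma, from 4 fragments in all. At this depth Cdkn2a and Cdkn2b could not be compared between groups, and the other members were tested on FPKM and not on fragment counts.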
